A study of Mus musculus with 48 samples.

Results

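The genes described here make and insert selenocysteine, the selenium analogue of cysteine, and were taken as *Sephs1*, *Sephs2*, *Sepsecs*, *Secisbp2*, *Eefsec*, *Pstk* and *Scly*. Every probe whose accession named one of these symbols in the reference gene table was used, which gave 9 probes for 7 genes out of 41174 probes and 18437 named genes on the array. *Sephs1* and *Secisbp2* had 2 probes each, and the brighter probe stood for the gene unless both are given. The array was an Agilent 2-colour array of long oligonucleotides, which compared the RNA of a mouse (Cy3 dye) with a shared reference RNA (Cy5 dye), so each value is a log2 ratio of mouse over reference. The sources differ on the reference, which the paper describes as RNA pooled from the intestine and liver of the mice and the series record as RNA of a pregnant mouse and foetus.

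RNA came from the liver and the whole colon of C57/BL6 offspring killed at 12 weeks of age, all raised on a high-fat diet that was supplemented with selenium and folate (H) or marginally short of both (L). The dam ate the diet of the first letter of a group from before mating until weaning, and the pup ate the diet of the second letter from weaning on. HH mice therefore had diet H throughout and LL mice diet L throughout, HL mice were switched to diet L at weaning, and LH mice were switched to diet H. Selenium and folate always changed together, so their effects cannot be told apart. Liver values came from 5 HH mice (2 arrays of the same animal were averaged) and from 6 mice of each other group, and colon values from 6 mice of each group. The labels do not say which mice were littermates. Littermates within a group would make the p-values too small, while litters split between the pup diets could make those of the pup's diet too large. Nor do they tie a liver to a colon, so livers and colons may come from the same animals, and the comparison of the tissues treats them as separate samples.

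Selenocysteine is built on its own tRNA. In outline, PSTK phosphorylates the seryl group that this tRNA carries, and SEPSECS exchanges the phosphate for selenium donated by selenophosphate. Selenophosphate is made by SEPHS2, which is itself a selenoprotein, while SEPHS1 is a close relative that lacks selenocysteine and does not replace it in this step. SCLY breaks down free selenocysteine and so returns selenium to the cycle. At the ribosome, SECISBP2 binds the SECIS element, a hairpin in the mRNA of a selenoprotein, and EEFSEC delivers the charged tRNA to the UGA codon that is read as selenocysteine. The liver is the main source of selenoprotein P, which carries selenium in plasma to other organs.

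The genes lie apart in the genome. In the GRCm38.p6 annotation of RefSeq, *Scly* spans chr1:91298295-91321080, *Sephs1* chr2:4881564-4910557, *Sepsecs* chr5:52640089-52669764, *Eefsec* chr6:88257334-88446552, *Sephs2* chr7:127271879-127274059, *Pstk* chr7:131371113-131392768 and *Secisbp2* chr13:51651682-51684044. Each is annotated as protein coding. The RefSeq promoter table held the 250 bases before a transcript start for 6 of the 7 genes, *Sepsecs* not among them. The promoters of *Sephs2* (chr7:127274060-127274309, minus strand) and *Scly* (chr1:91298088-91298337, plus strand) are printed because these genes showed the largest tissue differences of the members and were correlated among the livers. Capitals mark CCAAT or its other strand ATTGG (the CCAAT box), TATAAA or TTTATA (the TATA box) and CACGTG (an E box, the same on both strands), and the matches do not overlap. The *Scly* window reaches into the annotated gene, since it ends at the start of one of its transcripts.
Sephs2: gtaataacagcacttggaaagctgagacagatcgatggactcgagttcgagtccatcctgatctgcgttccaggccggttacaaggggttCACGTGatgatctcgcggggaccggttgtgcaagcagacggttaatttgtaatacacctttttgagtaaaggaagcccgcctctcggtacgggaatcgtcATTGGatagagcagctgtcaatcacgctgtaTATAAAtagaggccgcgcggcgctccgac
Scly: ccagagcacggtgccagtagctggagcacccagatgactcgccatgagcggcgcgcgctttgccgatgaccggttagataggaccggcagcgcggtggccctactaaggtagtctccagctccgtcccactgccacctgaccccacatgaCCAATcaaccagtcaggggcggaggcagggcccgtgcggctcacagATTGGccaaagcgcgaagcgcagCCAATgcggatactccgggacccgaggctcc
The *Sephs2* promoter held 1 match to each of the 3 motifs, and the *Scly* promoter held 3 matches to the CCAAT box and 0 to the others. Of 32851 promoters of the same length, 33.8% held the CCAAT box, 12.4% the TATA box and 6.02% this E box. These are matches of letters and not measured sites.

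All 9 probes were well above background in both channels on all 48 arrays, and none was saturated or left out. On the arrays as a whole, 55.1 to 66% of spots were above background in Cy3 in the liver and 66.8 to 73.7% in the colon. Each slide held 1 array of each diet group and 1 tissue, and the liver slides were scanned on one day and the colon slides on another, so tissue, slide and scan day cannot be told apart. Tissue identity was as labelled, since 7 of 7 measured hepatocyte markers (*Alb* and *Ttr* among them) were called higher in the liver and 7 of 8 colon epithelium markers and 5 of 5 smooth muscle markers higher in the colon. The exception, *Aqp8*, was higher in the liver. *Xist*, an RNA of female cells, stood apart on 8 arrays although the paper describes the mice as male. These were 1 HL and 1 LL liver, and 2 HH, 1 HL, 0 LH and 3 LL colons. They were not alike in *Eif2s3y*, an RNA of the Y chromosome. Its log2 Cy3 signal was low in the HL liver (6.13), the HL colon (6.06) and 2 of the LL colons (7.21 and 6.02). It was at 10.63 in the LL liver, at 10.69 and 10.09 in the HH colons and at 11.16 in the other LL colon. Differences are given as log2 differences with the standard error (SE), p is that of limma's moderated test, and the adjusted p is the Benjamini-Hochberg value over all probes of the array. A probe was called at a fold change over 1.5 with an adjusted p (FDR) under 0.05.

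Liver and colon were compared first, over all diets. Of the 9 probes, 5 were called and all 5 were higher in the liver, and they stand for *Sephs2*, *Scly*, *Eefsec*, *Sepsecs* and *Sephs1*. On the array, 30.3% of the probes tested were called (14.6% higher and 15.7% lower in the liver). The same 5 probes had no overlap between the livers and the colons, against 23.2% of all probes. In tissue RNA, fewer cells that express a gene and less of its RNA per cell cannot be told apart.

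*Scly*, the enzyme that recovers selenium from selenocysteine, ranged in the 23 livers from 0.95 to 1.74 with a median of 1.41, and in the 24 colons from -1.51 to -0.82 with a median of -1.12. The difference was 2.54 (SE 0.07, adjusted p = 1.82e-32 in limma), which is 5.82-fold. *Sephs2*, which makes selenophosphate, ranged from 0.57 to 2.15 in the livers (median 1.59) and from -1.78 to -0.69 in the colons (median -1.51). It showed the larger difference, 2.9 (SE 0.12, adjusted p = 1.99e-25 in limma) or 7.46-fold, and the intervals of the 2 genes, 2.65 to 3.14 for *Sephs2* and 2.4 to 2.68 for *Scly*, overlap. Both genes were above the reference in every liver and below it in every colon.

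*Sephs1*, the relative of *Sephs2*, was called on 1 of its probes. The brighter *Sephs1* probe ranged from 0.23 to 0.91 in the livers and from -0.46 to 0.19 in the colons, a difference of 0.81 (SE 0.06, adjusted p = 3.41e-15). The other *Sephs1* probe overlapped between the tissues, with 0.25 to 0.81 in the livers and 0.05 to 0.43 in the colons, and its difference of 0.26 (SE 0.05, 1.2-fold) was below the fold threshold. The probes of *Sephs1* thus gave the same direction but not the same call.

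Of the enzymes that act on the tRNA, *Sepsecs* was called and *Pstk* was not. *Sepsecs* ranged from 0.35 to 1.35 in the livers and from -0.51 to -0.01 in the colons, a difference of 1.06 (SE 0.06, 2.08-fold, adjusted p = 2.41e-19). *Pstk* ranged from -0.43 to 0.54 in the livers and from -0.71 to -0.08 in the colons, and its difference of 0.27 (SE 0.06, adjusted p = 0.000164) was under 1.5-fold. The tissues overlapped for *Pstk* and did not overlap for *Sepsecs*.

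The insertion factors also divided. *Eefsec*, the elongation factor, ranged from 1.01 to 1.6 in the livers and from -0.4 to 0.27 in the colons, a difference of 1.36 (SE 0.06, 2.57-fold, adjusted p = 1.22e-24). *Secisbp2*, the SECIS-binding protein, ranged from -0.24 to 0.72 in the livers and from -0.58 to -0.08 in the colons, with a difference of 0.56 (SE 0.08, 1.47-fold). Its other probe differed by 0.5 (SE 0.1). Neither *Secisbp2* probe passed the fold threshold, although both adjusted p-values were under 0.05.

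**Figure D1:**
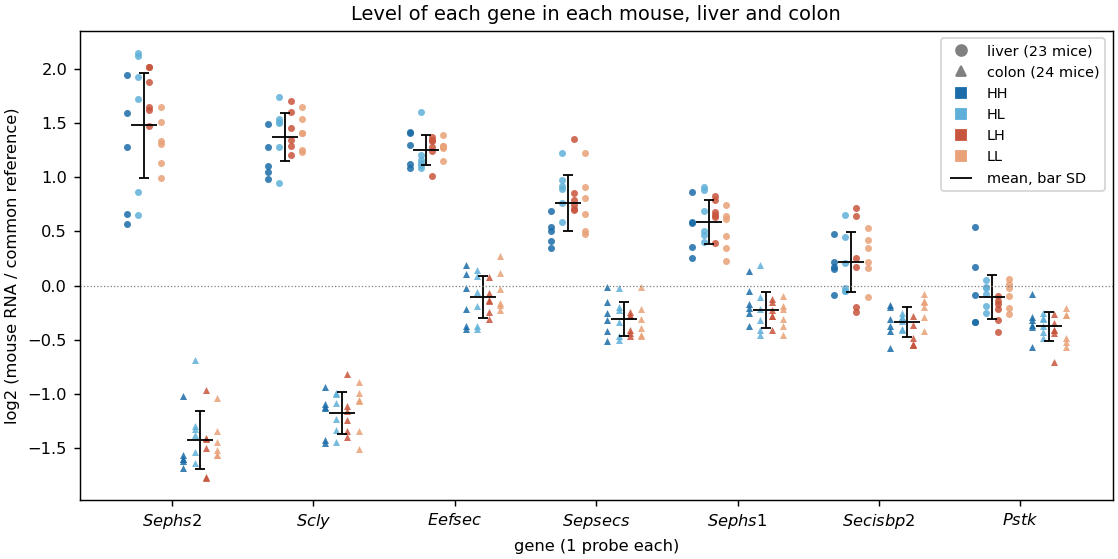
Level of each gene in each mouse as the log2 ratio of mouse RNA over common reference (vertical axis), 1 probe per gene (horizontal axis), with circles for 23 livers, triangles for 24 colons, colours for the diet groups, and black bars for the mean and SD over a tissue. *Sephs2* and *Scly* lie above 0 in every liver and below 0 in every colon, and the tissues overlap for *Secisbp2* and *Pstk*. The scale is relative to the reference, so heights are not to be compared between genes.

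The scaling of the arrays bears on the smaller of these differences. Loess removes any trend of the ratio with brightness within an array, whereas median centring shifts all ratios of an array by the same amount. Under median centring the median probe differed by 0.215 between liver and colon, against 0.01 under loess. *Sephs2* (2.51), *Scly* (2.02) and *Eefsec* (0.76) were still called higher in the liver, while *Sepsecs* (0.55) and *Sephs1* (0.21) fell below the fold threshold. *Secisbp2* (-0.07, and -0.1 for its other probe) and *Pstk* (-0.27, adjusted p = 0.00793 in limma) changed sign. No direction is therefore given for *Secisbp2* and *Pstk*.

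**Figure D2:**
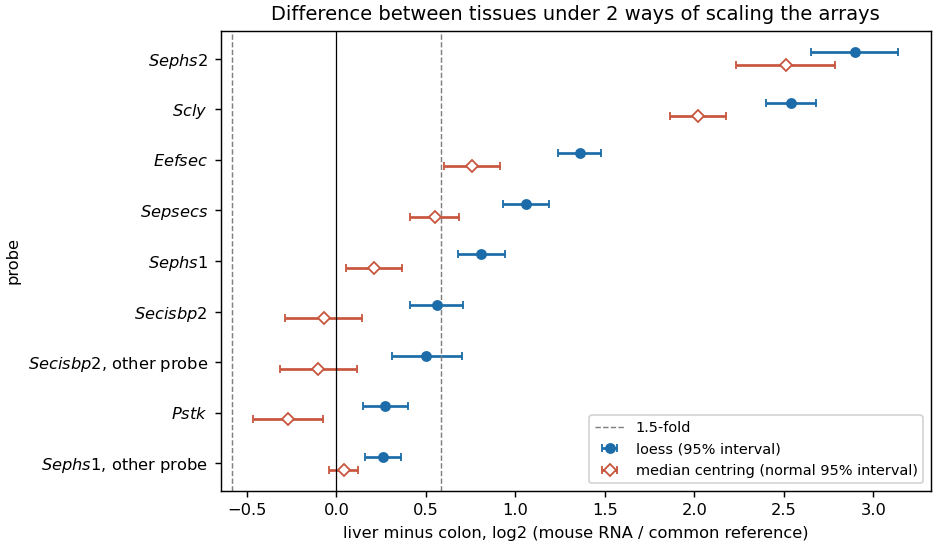
Difference between liver and colon (horizontal axis, log2 ratio, liver minus colon) for the 9 probes (vertical axis), with filled circles for loess with 95% intervals and open diamonds for median centring with normal 95% intervals. Dashed lines mark 1.5-fold. *Sephs2*, *Scly* and *Eefsec* lie beyond 1.5-fold under both scalings, *Sepsecs* and *Sephs1* under loess alone, and *Secisbp2* and *Pstk* lie on either side of 0.

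Among other genes that act on the selenocysteine tRNA, the SECIS element or selenium uptake, 13 were measured, of which 3 were called higher in the liver and 2 lower, with a median difference of -0.18 against 0.01 for all probes and 14.6% called higher and 15.7% lower over the array. One of the 13, *Lrp8*, was well above background on 0 of 24 liver arrays, so its liver level is only a bound. Higher were *Secisbp2l* (0.7, SE 0.09), a relative of *Secisbp2*, *Trit1* (0.7, SE 0.06), which modifies the selenocysteine tRNA, and *Lrp2* (0.69, SE 0.11), a receptor for selenoprotein P. Lower were *Rpl30* (-1.04, SE 0.08) and *Ncl* (-0.62, SE 0.09), both of which can bind SECIS elements and have general roles in ribosomes. Of 24 selenoproteins, *Sephs2* included, 9 were called higher in the liver and 3 lower, with a median of 0.2, and among them *Dio2* was well above background on 2 of 24 liver arrays and *Selenov* on 15. *Sephs2* showed the largest rise of the 24, followed by *Selenop* (2.49, SE 0.12), the plasma carrier, and *Gpx1* (2.44, SE 0.07). The others higher in the liver were *Msrb1* (1.93), *Txnrd2* (1.37), *Gpx4* (1.09), *Selenoi* (0.98), *Dio1* (0.87) and *Selenoo* (0.82), and the 3 that were lower were *Selenom* (-4.31), *Gpx2* (-4.27) and *Selenon* (-1.02). All calls of these lists were made under loess and were not read under median centring. That scaling took members with loess differences of 1.06 (*Sepsecs*) and 0.81 (*Sephs1*) below the fold threshold. The smaller differences of the lists may therefore depend on the scaling.

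The diets were compared within each tissue. None of the 9 probes was called in any of the 20 comparisons of diet, nor was any other probe on the array (0%) in these limma fits. The paper, at the same fold and FDR thresholds, reports differentially expressed liver probes in several of these comparisons, most of them in HH *vs.* LH. The paper counts 6 animals in each group, whereas 5 HH livers enter here. The authors' deposited ratios matched loess without background correction, which is not the background handling used here. Some other settings gave calls over the array in HH *vs.* LH and are listed at the end. The cause of this departure was not tested. HH *vs.* LH of the liver compares the dam's diets in mice fed diet H after weaning. There 3 of 9 probes had an unadjusted p under 0.05, against 12% of all probes, and the 3 were those of *Sepsecs*, *Sephs2* and the other probe of *Sephs1* (0.19, SE 0.08), each with a higher mean in LH.

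*Sepsecs*, the enzyme that places selenium on the tRNA, was at 0.69, 0.35, 0.5, 0.41 and 0.54 in the livers of the 5 HH mice. In the LH livers it lay between 0.7 and 1.35 with a median of 0.77, in the HL livers between 0.59 and 1.22 (median 0.9) and in the LL livers between 0.48 and 1.22 (median 0.74). The HH and LH livers did not overlap, which held for 1.54% of all probes, but the lowest LH value and the highest HH value were close. The difference of LH from HH was 0.36 (SE 0.13, 1.28-fold, 95% interval 0.08 to 0.63, adjusted p = 0.292 in limma). Within slides only the first array of the doubled HH mouse was used, which left 5 liver slides with an HH value. LH was higher than HH on 5 of 5 such slides, by 0.16 to 0.75. With slide as a block the difference was 0.37 (SE 0.09, adjusted p = 0.124 in limma), so the call was not reached either way.

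HL mice, whose diet was changed at weaning alone, also had more *Sepsecs* RNA than HH mice on 5 of 5 slides, by 0.19 to 0.63. The difference of HL from HH was 0.39 (SE 0.13, adjusted p = 0.952 in limma), and *Sepsecs* was the 1 probe of 9 under an unadjusted p of 0.05 there, against 4.37% of all probes. With slide as a block the adjusted p was 0.768 in limma. Without the replacement of local backgrounds that were brighter than their spots, the difference was 0.21 (SE 0.17). The LL livers differed from the HH livers by 0.27 (SE 0.13, 95% interval -0.01 to 0.54), and 0 of 9 probes had an unadjusted p under 0.05 in HH *vs.* LL, against 3.45% of all probes. These comparisons share the HH mice, so a low value in HH enters each of them.

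*Sephs2* was at 0.66, 1.59, 1.28, 0.57 and 1.94 in the 5 HH livers. In the LH livers it lay between 1.47 and 2.02 with a median of 1.76, in the HL livers between 0.65 and 2.15 (median 1.82) and in the LL livers between 0.99 and 1.65 (median 1.32). The HH and HL livers were spread more widely (SD 0.59 and 0.65) than the LH and LL livers (SD 0.23 and 0.24), and all groups overlapped. The difference of LH from HH was 0.57 (SE 0.26, 1.48-fold, 95% interval 0.03 to 1.11, adjusted p = 0.394 in limma), with LH higher on 5 of 5 slides. With slide as a block it was 0.55 (SE 0.19, adjusted p = 0.196 in limma). The residual SD of *Sephs2* over the liver groups was 0.46, larger than that of 96.8% of all probes.

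Markers of other cell types were read in the same comparison, where 12% of all probes had an unadjusted p under 0.05. In LH against HH livers all 7 measured hepatocyte markers had a higher mean (0.13 to 0.83, median 0.26), with 3 at an unadjusted p under 0.05 (*Cyp2e1*, *Hnf4a* and *Serpina1c*) and 0 called. The mean log2 ratio of the 7 markers ranged from 1.32 to 1.7 over the HH livers and from 1.65 to 2.1 over the LH livers, and from 1.29 to 1.96 over the HL livers. All 7 markers were above background on all liver arrays. The 6 Kupffer cell markers had lower means in LH than in HH (-1.08 to -0.14), 1 of them, *Marco*, at p under 0.05. Their mean log2 ratio overlapped, with 1.25 to 2.82 over the HH livers and 1.21 to 2.4 over the LH livers. The 4 markers of stellate cells and fibroblasts also had lower means in LH (-0.53 to -0.22), none at that p. Their mean log2 ratio ranged from -3.18 to -1.49 over the HH livers (median -3.09). Over the LH livers it ranged from -3.52 to -2.71 (median -3.2). Both erythroid markers had lower means in LH, *Hba-a1* (-0.5) at p under 0.05 and *Alas2* (-0.19) not, and their mean log2 ratio ranged from 1 to 1.34 over the HH livers and from 0.66 to 1.03 over the LH livers. The 4 lymphocyte markers went both ways (-0.61 to 0.18, median 0.01), and 1 of them, *Ptprc* (-0.61), had p under 0.05. Their mean log2 ratio ranged from 0.3 to 0.56 over the HH livers and from 0.19 to 0.5 over the LH livers. Of the 4 adipocyte and 5 exocrine pancreas markers, 0 had p under 0.05. The highest LH liver stood at 1.84 for the mean of the adipocyte markers, against a median of -1.85 over the LH livers. For the exocrine pancreas markers the highest HL liver stood at 1, against a median of -2.42 over the HL livers. The part of these cell types in the differences of *Sepsecs* and *Sephs2* was not tested.

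**Figure D3:**
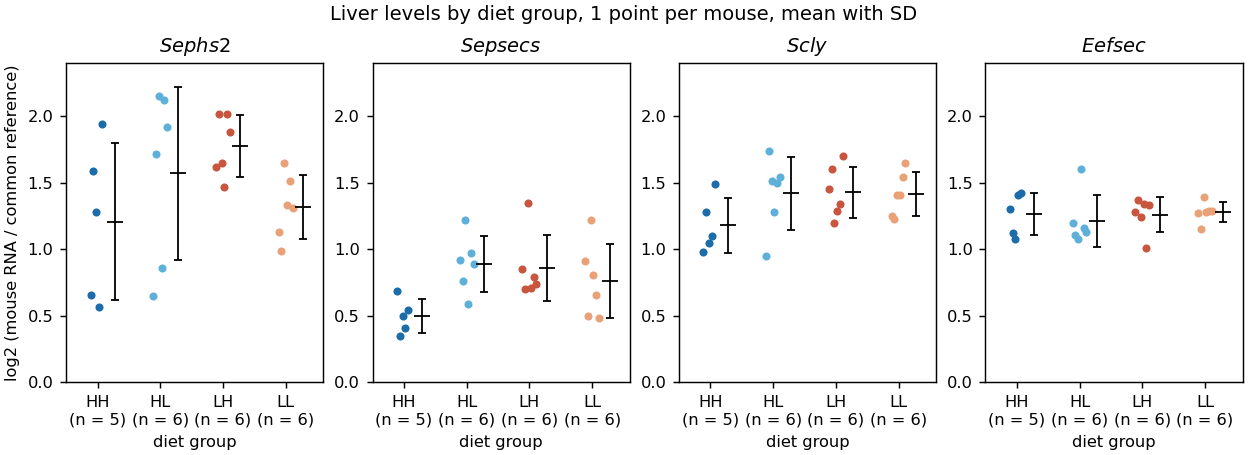
Liver levels of *Sephs2*, *Sepsecs*, *Scly* and *Eefsec* (vertical axis, log2 ratio of mouse RNA over common reference) by diet group (horizontal axis), 1 point per mouse, with black bars for the mean and SD. *Sepsecs* was at 0.35 to 0.69 in HH and at 0.7 to 1.35 in LH, and the groups overlap for the other genes. None of the differences passed the adjusted threshold.

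The interaction asks whether the effect of the pup's diet depended on that of the dam, as the difference of LL from LH minus the difference of HL from HH. In the liver 3 of 9 probes had an unadjusted p under 0.05, against 11.4% of all probes. They were *Sepsecs* with -0.48 (SE 0.18, adjusted p = 0.342 in limma), *Sephs2* with -0.81 (SE 0.36, adjusted p = 0.401) and the other probe of *Sephs1* with -0.24 (SE 0.12, adjusted p = 0.435). The values were below 0 on 5 of 5 slides for *Sepsecs* and for *Sephs2*. Without the arrays where *Xist* stood apart they were -0.45 (SE 0.19) and -0.78 (SE 0.39), and *Sephs2* no longer had an unadjusted p under 0.05. With slide as a block the adjusted p was 0.111 for *Sepsecs* and 0.166 for *Sephs2* in limma. For *Sepsecs* the value was -0.26 (SE 0.24) without the replacement of bright backgrounds. The interaction holds the same HH and LH mice as the comparisons above and is not a separate piece of evidence. In LH *vs.* LL of the liver the other probe of *Sephs1* alone had an unadjusted p under 0.05 (-0.18, SE 0.08), 1 of 9 against 6.38% of all probes, and *Sephs2* differed by -0.45 (SE 0.25). In HL *vs.* LL and HL *vs.* LH of the liver 0 of 9 probes had such a p, against 3.08% and 1.74% of all probes.

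*Scly* and *Pstk* were short of an unadjusted p of 0.05 in the liver. *Scly* was at 0.98, 1.28, 1.05, 1.1 and 1.49 in the HH livers and at 1.2 to 1.7 in the LH livers, and the difference was 0.25 (SE 0.12, 95% interval -0.01 to 0.51). *Pstk* had the opposite sign, with a difference of -0.22 (SE 0.12, 95% interval -0.46 to 0.03). One HH liver stood at 0.54 for *Pstk*, above all other livers, which ranged up to 0.17.

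*Eefsec* had a residual SD of 0.14 in the liver, below the median probe (0.17). Its liver means were 1.26, 1.21, 1.26 and 1.28 in HH, HL, LH and LL, and LH differed from HH by 0 (SE 0.09, 95% interval -0.19 to 0.18). *Secisbp2* differed between LH and HH livers by 0.04 (SE 0.17), and its other probe by -0.19 (SE 0.23). Over the 9 probes the 95% intervals of LH against HH reached from -0.67 to 1.11, and 6 of them lay within 1.5-fold. For the main effects of the dam's diet and of the pup's diet in the liver, all 9 intervals lay within 1.5-fold, and 0 of 9 probes had an unadjusted p under 0.05 (4.16% and 1.37% of all probes).

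The accessory factors and selenoproteins gave 0 calls in HH *vs.* LH of the liver, where 12% of all probes had an unadjusted p under 0.05. Of the 13 accessory factors, 3 had an unadjusted p under 0.05, and all 3 were higher in LH, namely *Celf1* (0.43, SE 0.16), *Ncl* (0.42, SE 0.17) and *Eif4a3* (0.25, SE 0.12). Of the 24 selenoproteins, 5 had such a p, of which *Sephs2*, *Txnrd3* (0.34, SE 0.13) and *Selenos* (0.28, SE 0.14) were higher in LH. *Gpx4* (-0.6, SE 0.13, adjusted p = 0.18 in limma) and *Selenow* (-0.42, SE 0.15), both selenoproteins with antioxidant roles, were lower in LH. The paper names *Gpx4* among the genes whose expression differed between HH and LH livers.

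In the colon, the 95% intervals of all 9 probes lay within 1.5-fold in each of the 9 diet comparisons, the widest reaching 1.49-fold in the interaction. *Sephs2*, which had a tissue difference of several-fold, had means of -1.51, -1.31, -1.47 and -1.41 in HH, HL, LH and LL. *Sepsecs* had -0.28, -0.29, -0.35 and -0.31, and its LH and HH colons differed by less than the SD of either group. A direct test of the dam's diet effect in liver minus that in colon gave 0.17 for *Sepsecs* (SE 0.09, adjusted p = 0.857 in limma) and 0.18 for *Sephs2* (SE 0.17). For *Sepsecs* it was 0.34 (SE 0.11, adjusted p = 0.155 in limma) without the replacement of bright backgrounds. In this comparison and in that of the pup's diet between tissues, 0 of 9 probes had an unadjusted p under 0.05, against 5.68% and 2.99% of all probes.

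*Secisbp2* was the member that passed an unadjusted p of 0.05 in the colon, in 3 comparisons that share the LH and LL colons. In LH *vs.* LL, the comparison of the pup's diet after a low dam diet, both of its probes and no other member had an unadjusted p under 0.05, so 2 of 9 against 2.81% of all probes. The brighter probe lay between -0.55 and -0.28 in LH (median -0.51) and between -0.42 and -0.08 in LL (median -0.18). The difference of LL from LH was 0.25 (SE 0.07, adjusted p = 1 in limma). The other probe lay between -0.28 and 0.08 in LH and between 0.03 and 0.37 in LL, with a difference of 0.29 (SE 0.08, adjusted p = 1 in limma). The groups overlapped for both probes, and the means of HH and HL (-0.34 and -0.33 on the brighter probe) lay between those of LH and LL. LL was higher on 6 of 6 slides with each probe, and with slide as a block the adjusted p was 0.459 for both. Of these arrays 3 of the LL colons and 0 of the LH colons were among those where *Xist* stood apart, and without all such arrays the differences were 0.3 (SE 0.09) and 0.4 (SE 0.1), with an adjusted p of 0.97 for both in limma. The probes read the same RNA of the same mice and are not separate samples. The mean log2 ratio of the lymphocyte markers ranged from -0.08 to 1.73 over the LL colons (median 0.06) and from 0.01 to 0.27 over the LH colons. For the Kupffer cell and macrophage markers it ranged from -1.58 to 0.52 (median -1.48) and from -1.54 to -1.2. The part of cell types in the difference of *Secisbp2* was not tested. Averaged over the dams' diets, *Secisbp2* was higher in colons of mice on diet L after weaning by 0.13 (SE 0.05, adjusted p = 1 in limma), and 2 of 9 probes had an unadjusted p under 0.05 against 2.03% of all probes. In the colon interaction the 2 *Secisbp2* probes had such a p, with 0.23 and 0.28, against 1.79% of all probes. After a dam on diet H, HL differed from HH by 0.02 (SE 0.07) on the brighter probe. The average and the interaction hold the same LH and LL colons as LH *vs.* LL and are not separate pieces of evidence. In the other 6 colon comparisons 0 of 9 probes had such a p, against 2.11% of all probes for the dam's diet, 3.24% for HH *vs.* LH, 1.46% for HH *vs.* HL, 1.72% for HH *vs.* LL, 1.02% for HL *vs.* LL and 2.95% for HL *vs.* LH.

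The spread between mice of the same group lay partly between slides. Differences between slides made up 33.9 to 86.9% of the within-group sum of squares of the 9 probes in the colon (median 67.2%) and 14.3 to 70.5% in the liver (median 56.6%). Over all probes the median share was 45.4% in the colon and 33.1% in the liver, and slides hold 25% and 26.3% of the degrees of freedom. Of the 9 probes, 7 were above the median of all probes in each tissue, and the other probe of *Sephs1* in the liver (14.3%) was below the share of the degrees of freedom. The highest shares were those of *Eefsec* (86.9%), *Sephs2* (86.4%), *Sepsecs* (80.8%) and *Scly* (78.2%), all in the colon. On colon slide 9, *Sephs2* was between -1.04 and -0.69 on all 4 arrays, 1 of each diet, and on the other 20 arrays it was between -1.78 and -1.3, with no overlap. On colon slides 11 and 12, *Eefsec* had its highest slide means (0.08 and 0.15) and so had *Sepsecs* (-0.18 and -0.1), while *Scly* had its lowest (-1.38 and -1.44). The cause of the differences between slides was not tested. Each slide held every diet, so slide and diet can be told apart.

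**Figure D4:**
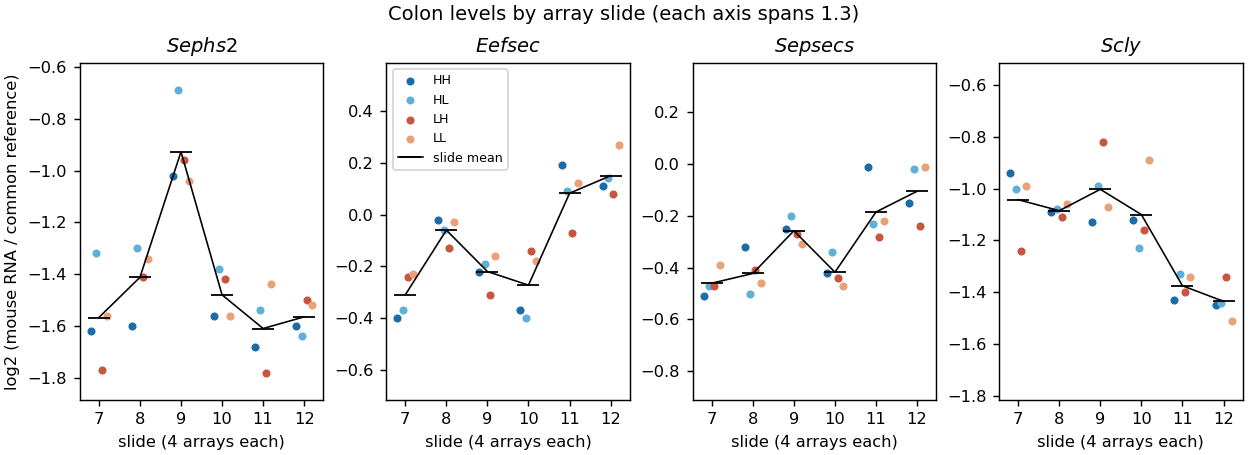
Colon levels of *Sephs2*, *Eefsec*, *Sepsecs* and *Scly* (vertical axis, log2 ratio of mouse RNA over common reference, each axis spanning the same range) by slide (horizontal axis), with 4 arrays per slide, colours for the diet groups and a black line for the slide means. *Sephs2* was at -1.04 to -0.69 on slide 9, above all other slides, and on slides 11 and 12 *Eefsec* and *Sepsecs* had their highest slide means and *Scly* its lowest.

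The genes were then compared from mouse to mouse. Pearson's r and Spearman's rho were computed for 42 pairs, 21 in each tissue, with 100000 permutations and p-values adjusted over the 42 pairs, and 6 pairs had an adjusted p under 0.05 for r. The share of such pairs among other genes of the array was not computed, so this count is not read as particular to the members. In the liver, *Sephs2* and *Scly* went together over the 23 mice (r = 0.72, p = 0.00011, adjusted p = 0.00168 by permutation). Their rho was 0.68 (p = 0.0005, adjusted p = 0.0105 by permutation). Without the 2 mice farthest from the median of *Sephs2*, r was 0.63. It was 0.73 for deviations from the group means and 0.7 for deviations from the slide means, where the adjusted p was 0.0126 by permutation. All permutations exchanged mice freely across slides and groups, also after slide means were removed, so these p-values can be too small. Group and slide means were not removed together.

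*Sephs1* and *Sephs2* were also correlated in the liver (r = 0.59, p = 0.00335, adjusted p = 0.0281 by permutation, rho = 0.61 with p = 0.00228 and adjusted p = 0.0192). Without 2 mice r was 0.48, and for deviations from the slide means it was 0.54, where the adjusted p was 0.066 by permutation. *Secisbp2* and *Scly* had r = 0.56 in the liver (p = 0.00521, adjusted p = 0.0365 by permutation, rho = 0.6 with p = 0.00306 and adjusted p = 0.0214). Without 2 mice r was 0.48. For deviations from the slide means it was 0.15, with an adjusted p of 0.789 by permutation.

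**Figure D5:**
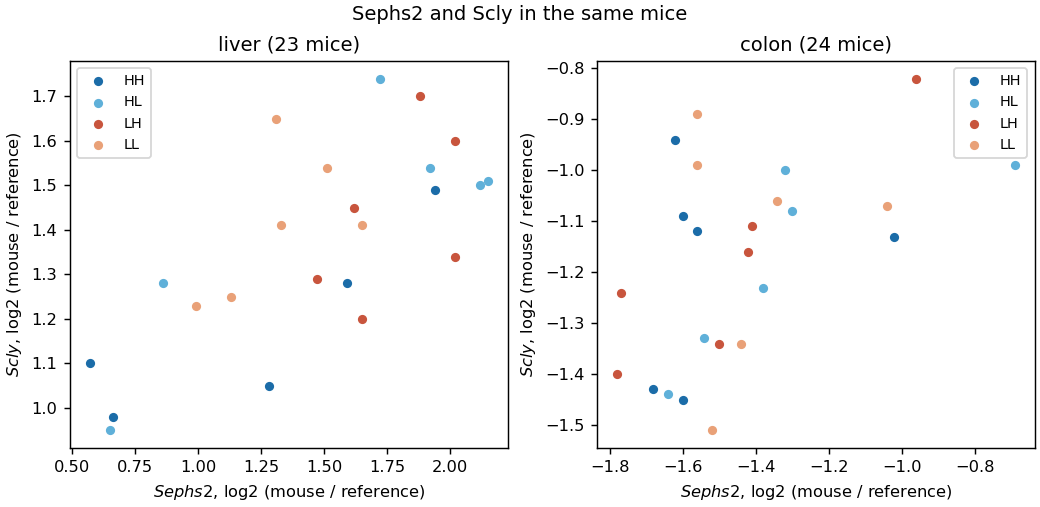
*Scly* (vertical axis) against *Sephs2* (horizontal axis), both as log2 ratios of mouse RNA over common reference, for 23 livers (left) and 24 colons (right), 1 point per mouse and colours for the diet groups. In the liver the points rise together (r = 0.72), and the 3 livers lowest in *Sephs2* are 2 of HH and 1 of HL. In the colon the 4 points farthest to the right are those of slide 9.

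In the colon, *Eefsec* and *Scly* were negatively correlated over the 24 mice (r = -0.75, p = 4e-05, adjusted p = 0.00168 by permutation, rho = -0.68 with p = 0.00035 and adjusted p = 0.0105). *Sepsecs* and *Eefsec* were positively correlated (r = 0.72, p = 0.00012, adjusted p = 0.00168 by permutation, rho = 0.66 with p = 0.00089 and adjusted p = 0.0125). *Sepsecs* and *Scly* were negatively correlated (r = -0.69, p = 0.00018, adjusted p = 0.00189 by permutation, rho = -0.63 with p = 0.00135 and adjusted p = 0.0142). Without the 2 mice farthest from the median the values were -0.67, 0.59 and -0.59. For deviations from the slide means they were -0.14, 0.35 and -0.33, with adjusted p-values of 0.789, 0.346 and 0.368 by permutation. None of the 3 passed the threshold within slides. *Sephs2* and *Scly* had r = 0.5 in the colon (p = 0.0108, adjusted p = 0.0567 by permutation, rho = 0.46 with p = 0.0241 and adjusted p = 0.119), 0.36 without 2 mice, and 0.21 for deviations from the slide means.

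Lastly, the named genes most like each member were found among 16809 probes above background on every array, by the root mean square difference between the 8 group means of tissue and diet after centring. Nearest to *Sephs2* were *Rcl1* (0.0713), *Oaf* (0.0756) and *Nudt7* (0.0872). *Scly* was most like *Deaf1* (0.0449), *Apc* (0.0497) and *Enpp3* (0.0539), and *Eefsec* most like *Wdr12*, *Phldb2* and *Ifitm3* (0.0337 to 0.0376). *Sepsecs* was most like *Dnajc12*, *Rffl* and *Dclre1a* (0.0425 to 0.0463). For *Sephs1* the nearest were *0610010F05Rik*, *4931428F04Rik* and *Nsun4*, for *Secisbp2* *Polr1b*, *Eif1* and *Mettl17*, and for *Pstk* *Nufip1*, *Hes2* and *Dhps*. The members themselves were left out of the candidates, and the likeness rests on 8 points. For *Scly* tissue weighed far more than diet in these points, with means before centring of 1.18 to 1.43 in the liver and -1.19 to -1.14 in the colon. Its likeness is thus mostly that of a tissue difference. For *Pstk* the means lay closer, at -0.23 to -0.01 and -0.43 to -0.33. The ratios are those of loess, and the tissue differences of *Secisbp2* and *Pstk* changed sign under median centring.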

How the data were processed

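RNA of liver and colon was measured on 48 2-colour arrays. The authors deposited, per the file headers of Agilent Feature Extraction, the median Cy3 and Cy5 intensity of each spot and its local background without normalization, and processed intensities that the scanner software had background-subtracted and dye-normalized. The authors' own log2 values, deposited with the reference in the numerator, matched global loess without background correction on each array (r of at least 0.9997). The submitters' processing notes name limma and R 3.0.2. The version of Feature Extraction in the headers is later than the one the paper names.

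Local backgrounds brighter than their spot were replaced by the median background of the array and channel, normexp (offset 50) and global loess were applied, spots the scanner software marked as outliers (102 to 261 per array) were left out, and log2 ratios of mouse over reference were averaged per probe (R 4.3.3, limma 3.58.1). Each tissue was fitted as 4 groups with lmFit and eBayes. Tissues were compared over all 8 groups with slide as a random block (correlation 0.206), with livers and colons unpaired, since the labels do not say which share an animal. Correlations used numpy 2.4.6 and scipy 1.17.1. Fits were tested on simulated data. Accessions were matched to the RefSeq table of GRCm38.p6, which named 27053 of 41174 probes. The precision is limited by the number of arrays.

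Deviations from the group means, over all probes, correlated between mice of different groups on the same slide with a median of 0.13 in the liver (-0.32 to 0.67) and 0.36 in the colon (0.09 to 0.72), against -0.04 and -0.13 between slides. The labels give the slide.

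The members and lists were chosen with earlier results of these data known. Every member was named, with all its probes, together with the called genes of 2 lists of pathway genes or the 3 of lowest p, and the 3 genes most like each member. Alternatives were other background corrections, median centring, processed signals, the deposited ratios, Cy3 alone, slide as a block, other handling of the doubled HH mouse, a filter on dim probes, array weights, other sets of groups, no arrays with *Xist*, no minimum fold, and each mouse left out. Tissue fits with no slide block and correlations within slides were added after seeing the data.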

Additional observations from a re-analysis of the deposited data

Results flagged for a closer look

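In 6 of 72 combinations of probe and group, the highest or lowest mouse stood apart by Dixon's test at the 95% level, which chance alone gives in about 1 of 20 for independent normal values. The share over all probes of the array was not computed, so the count is not read as particular to the members. *Sephs2* was high in colon HH replicate 3 (-1.02, next -1.56) and in colon HL replicate 3 (-0.69, next -1.3), both on slide 9. *Sepsecs* was high in liver LH replicate 3 (1.35, next 0.85), on liver slide 3, where its values were high in HL and LL too (1.22 in each). The other probe of *Secisbp2* was low in liver LL replicate 3 (-0.12, next 0.8), also on slide 3. *Eefsec* was high in liver HL replicate 4 (1.6, next 1.2) and low in liver LH replicate 5 (1.01, next 1.24).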

How the results depend on the processing

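The number of member probes called was 0 in every diet comparison under every alternative run, and it was 5 to 7 for the tissue difference, except for 3 under median centring and 9 with no minimum fold. Under median centring the tissue differences of *Secisbp2* (-0.07, other probe -0.1) and *Pstk* (-0.27) reversed. The cause was not tested. Leaving out each mouse in turn left the counts of calls at 5 for the tissue difference and 0 elsewhere. With slide as a block, the replicate block of these arrays, 0 members were called in any diet comparison, and over the array 4 probes were called in the liver interaction against 0 without it. Over the array other settings also gave calls: in HH *vs.* LH of the liver 106 with all 8 groups in 1 fit, 17 with only the groups compared, 6 with both arrays of the HH mouse as mice and 2 with array weights, in the liver interaction 52 with all 8 groups and 19 with array weights, and for the dam's diet in liver minus colon 2 without replaced backgrounds and 1 with processed signals. For the tissue difference the array gave 12493 calls, against 24168 under median centring, 20220 with processed signals and 26288 with no minimum fold. The tissue difference without the slide block also gave 5 calls. Of 42 correlations, 6 had an adjusted p under 0.05, as they did without background correction, against 10 for deviations from the group means and 1 for deviations from the slide means. A block for scan date was not run, since within a tissue all arrays share it. Dim spots are no limit here, as every member was above background on each array, while 5 or 6 mice per group and the spread between slides are.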
